A study of Mus musculus with 653 samples.

Results

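The cells described here are mesenchyme cells of the E10.5 mouse liver, compared between those sorted as Lgr5-GFP+ and those sorted without regard to GFP (bulk). They were chosen from the read counts: an E10.5 cell was a member when more than 10 reads lay on at least 2 of Pdgfra, Col1a1, Col1a2 and Col3a1, with at most 10 reads of Afp and at most 10 of Klf1. By this rule 212 of the 414 E10.5 cells were members, of 653 cells in the series. The embryos came from Lgr5-EGFP-IRES-creERT2 males kept on a C57BL/6 background and MF1 females. This allele is a knock-in, so GFP is driven by the Lgr5 locus and the modified allele lacks intact Lgr5. Per the study's description both sorts came from embryos of this line. Its matings gave heterozygous and wild-type littermates, which the study scored for GFP and split by genotype. GFP+ cells thus carry the allele, but whether bulk cells came from heterozygous embryos only is not stated. A difference in genotype could not be told apart from the sort. Both sorts took Liv2+CD31-CD45- cells at E10.5. The Lgr5-GFP+ sort also required GFP, while the bulk sort did not exclude GFP+ cells. No label names an embryo, litter or sorting day, so each sort counts as 1 sample: no difference below has a test, and embryo, litter and sort cannot be told apart. The cells were sequenced in 5 library pools, which held both sorts and serve here as a within-pool check, not as biological replicates.

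Lgr5 is a receptor for R-spondins, secreted proteins that keep the E3 ligases Znrf3 and Rnf43 from removing Wnt receptors, and it is itself a well-known Wnt target gene. In the canonical Wnt pathway beta-catenin joins TCF/LEF factors on DNA, and Axin2 and Lef1 are common readouts of its activity. The early liver bud grows into the mesenchyme of the septum transversum, and limb, body wall and heart mesenchyme lie close by at this age.

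Of the 212 members 96 were Lgr5-GFP+ and the others bulk. They made up 45.5% (exact 95% binomial interval 38.6 to 52.5) of the E10.5 Lgr5-GFP+ cells and 57.1% (exact 95% binomial interval 50.03 to 64) of the E10.5 bulk cells. In pools 1 to 5 the Lgr5-GFP+ members were 24 of 45 cells, 9 of 47, 21 of 40, 27 of 41 and 15 of 38, and the bulk members 25 of 42, 21 of 41, 22 of 41, 23 of 42 and 25 of 37. Pool 2 stood apart, with the lowest Lgr5-GFP+ share, and without it the shares were 53% and 58.6%. With no read of Afp or Klf1 allowed the order turned, at 22.3% of Lgr5-GFP+ and 13.3% of bulk cells. All intervals given here cover the error of counting cells only, and not the spread between embryos, litters or sorts. GEO labels every cell as a liver hepatoblast, but most hepatoblast markers given below were too rare in the members to be compared. Mdk, Gpc3 and Id3, which hepatoblasts and mesenchyme both express, were abundant: Mdk had more than 10 reads in 100% of either sort, Gpc3 in 98.96% and 94.8% and Id3 in 96.9% and 88.8%. Afp was at 0.763 against 0.354 RPM (reads per 1000000 reads, summed over the cells of each sort, Lgr5-GFP+ first, as in every pair of levels below), which the rule fixed, and Hnf4a, which it did not use, was at 0.0498 against 0.0283 RPM. Only 3 of 14 hepatoblast markers passed the filter used for the comparison (more than 10 reads in at least 5% of the members), namely Dlk1, Epcam and Apoa2, against 17 of 18 mesenchyme markers. The hepatoblast list summed to 160.9 to 319.9 RPM over the Lgr5-GFP+ pools and 230.1 to 604 RPM over the bulk pools. Of the endothelial markers 2 of 9 passed (Flt1 and Tek), with sums of 2.94 to 274 RPM and 10.3 to 260.4 RPM, and Cdh5, a defining marker, at 0.166 against 0.913 RPM. Of the erythroid and leukocyte markers 5 of 12 passed, with Ptprc, the gene of CD45, at 0.0166 against 0.0991 RPM. No marker of these 3 lists was at 0 over all members. The part of the hepatoblast and endothelial markers in the results was not tested, and results without members over 10 Hbb-bs reads are given with the globins. The 4 genes of the rule are given as a description: Pdgfra was at 167.9 against 263 RPM, Col1a1 at 904 against 678 RPM, Col1a2 at 812 against 609 RPM and Col3a1 at 1060.4 against 1057 RPM, each higher in Lgr5-GFP+ members in some pools and lower in others. Exactly 2 of the 4 genes were over the threshold in 29 Lgr5-GFP+ and 42 bulk members. Just outside the rule lay 31 Lgr5-GFP+ and 24 bulk cells with 1 of the 4 genes over it.

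Depth over all pools was alike in both sorts but not within pool 5, where the median was 1702550 reads in Lgr5-GFP+ and 884739 in bulk members. Over all pools it was 1249480 reads per Lgr5-GFP+ member and 1186200 per bulk member, over a range of 463347 to 2279700. The number of genes detected differed. With every cell thinned to 100000 reads the median was 4771 genes in Lgr5-GFP+ and 3874.5 in bulk members. In pools 3, 4 and 5 the medians were 5662, 5426 and 4951 against 4294, 4254 and 4083, and in pools 1 and 2 they were 2127.5 and 2116 against 2044 and 1735. Lgr5-GFP+ members thus had more genes in each pool after thinning, by a wide margin in pools 3 to 5. With all reads the order in pool 1 was the other way, at 4573.5 against 4697 genes. Among cells called in G1 the medians were 4318 and 3865. A cell with more detected genes is more likely to pass 10 reads for any given gene, and the share of cells was higher in Lgr5-GFP+ members, with intervals that did not meet, for 9.68% of the 10524 genes compared, against 0.114% lower. Shares of cells below are to be read against that background, while levels are shares of all reads, for which the median gene had a log2 ratio of -0.002151.

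**Figure D1:**
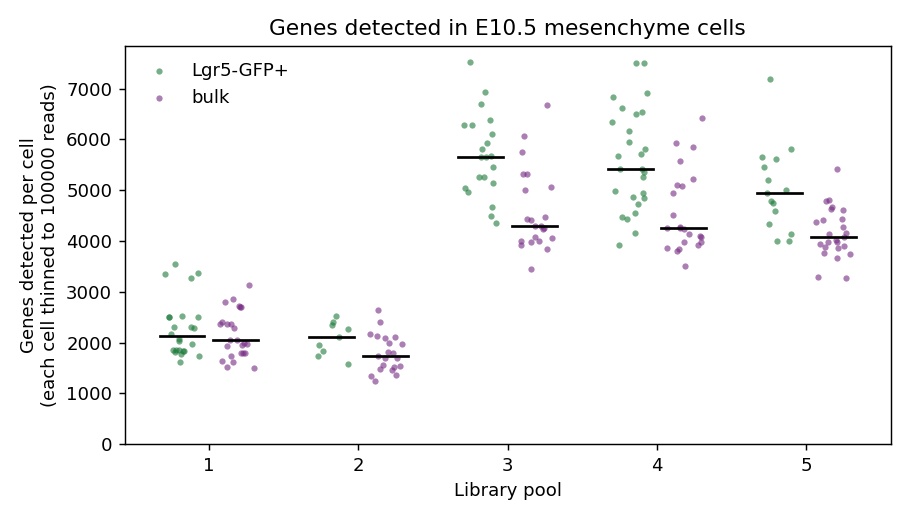
Genes with at least 1 read per cell after each cell was thinned to 100000 reads (vertical axis), by library pool (horizontal axis) and sort. Each point is 1 cell and the black line is the median; the Lgr5-GFP+ medians lie at 5662, 5426 and 4951 in pools 3 to 5, above 4294, 4254 and 4083 in bulk.

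Lgr5 itself, the gene whose locus drives the sorted GFP, served as the check of the sort and is no finding. In pools 1 to 5 it was at 9.64, 7.26, 58, 35.3 and 28.6 RPM in Lgr5-GFP+ members and at 0.103, 0.114, 1.93, 4.32 and 8.24 RPM in bulk members. The sums were 30.8 against 2.97 RPM, and more than 10 reads were found in 25 Lgr5-GFP+ members, 26% (17.6 to 36), and in 4 bulk members, 3.45% (0.947 to 8.59). At least 1 read was found in 45 and 20 members. Most Lgr5-GFP+ members had 10 or fewer Lgr5 reads, and in pools 1 and 2 only 2 of 33 had more, although all were sorted for GFP.

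To list genes that differed, the ratio of summed RPM was taken for the 10524 genes that passed the filter, and a gene was called when it differed 2-fold or more (a log2 ratio past 1 in either direction) and lay on the same side in all 5 pools. This rule of size called 1.65% of the genes higher in Lgr5-GFP+ members and 1.84% lower. Erbb4 lay just inside at a log2 ratio of 1.0003 and Cpne3 just outside at 0.995. Among lower genes, Pkn3 lay just inside at -1.003 and Nubp1 just outside at -0.998. Without the condition on pools, 927 genes (8.81%) were 2-fold higher and 948 (9.01%) lower, so most large ratios did not keep their side in all pools. Without the condition on size, 337 genes (3.2%) were higher and 445 (4.23%) lower in each of the 5 pools, and 49.9% of genes had a ratio above 1 in the sums. These shares were not tested against chance, so the same side in all pools is by itself no evidence of a difference. Calls within the lists below are to be read against 1.65% higher and 1.84% lower over all genes. For 85 genes called higher the intervals of the shares of cells were also apart (0.808% of all genes), and among the lower genes this held for 2, the adult beta globins Hbb-bs and Hbb-bt (0.019%). The higher genes were thus often seen in more cells, whereas nearly all lower genes differed in level with overlapping shares. Over all genes compared, called or not, the shares were apart and higher for 9.68% and lower for 0.114%. How far this background accounts for the contrast between higher and lower calls was not tested.

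Transcription factors that pattern limb, body wall and skeletal mesenchyme were among the genes higher in each pool. Runx2 (ENSMUSG00000039153, chr17:44495987-44814797), the master regulator of the osteoblast lineage, was at 138.7, 30.1, 92.9, 164.9 and 94.6 RPM in the Lgr5-GFP+ members of pools 1 to 5 and at 35.6, 1.94, 3.58, 25.3 and 24.1 RPM in bulk. The lowest Lgr5-GFP+ pool lay below the highest bulk pool, but within each pool Lgr5-GFP+ was higher. The log2 ratio was 2.67 (1.96 to 4.70 by pool), and 40 Lgr5-GFP+ and 9 bulk cells had more than 10 reads, 41.7% (31.7 to 52.2) against 7.76% (3.61 to 14.2). It was in none of the lists and was picked after its values were seen. Irx3 (ENSMUSG00000031734, chr8:91798525-91802067), an Iroquois homeobox factor of proximal limb and neural tube, was at 101.6, 59.9, 51.3, 38.6 and 56.5 RPM against 6.68, 5.47, 13.8, 17.2 and 13.1 RPM, with a log2 ratio of 2.44 and more than 10 reads in 45 Lgr5-GFP+ and 13 bulk cells. Tbx3 (ENSMUSG00000018604, chr5:119670669-119684724), a T-box factor needed in limb, heart and liver bud, was at 123.5, 183.7, 116.03, 96.6 and 53.6 RPM against 13.46, 21, 36.1, 14.2 and 22.1 RPM, a log2 ratio of 2.34, with more than 10 reads in 45 Lgr5-GFP+ and 23 bulk cells. For both genes the lowest Lgr5-GFP+ pool lay above the highest bulk pool. At least 2 of Runx2, Irx3 and Tbx3 were over 10 reads in the same cell in 45 Lgr5-GFP+ members, 46.9% (36.6 to 57.3), and in 8 bulk members, 6.90% (3.02 to 13.1). Pools 1 to 5 gave 6 of 24, 2 of 9, 11 of 21, 17 of 27 and 9 of 15 such cells in Lgr5-GFP+, and 0, 0, 3, 4 and 1 in bulk. The 3 genes were picked as higher in these same cells, so this share describes the same difference and adds no support. Other sets of 3 genes were not compared, and more genes were detected per Lgr5-GFP+ cell.

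Of the limb and body wall list 26 of 33 genes passed the filter, with Irx3, Tbx3 and Grem1 among the genes called higher, Hand1 called lower and a median log2 ratio of -0.06 beside -0.002151 over all genes. Grem1, a secreted BMP antagonist, was at 30.1 against 6.996 RPM, but in pool 1 both sorts were near 0 (1 read in Lgr5-GFP+ and none in bulk). Hand1, a factor of lateral mesoderm and heart, was at 54.1, 146.04, 129.1, 108.8 and 2.51 RPM against 93.9, 177.5, 223, 223 and 140.4 RPM, a log2 ratio of -1.02 that lay close to the threshold and was under 2-fold in 9 of 20 alternative settings. Meis2 and Meis1, abundant uncalled members and common partners of Hox proteins, had log2 ratios of 0.02 and -0.42. Tbx5, which marks forelimb and heart mesoderm, was at 103.6 against 38.9 RPM and was not called.

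**Figure D2:**
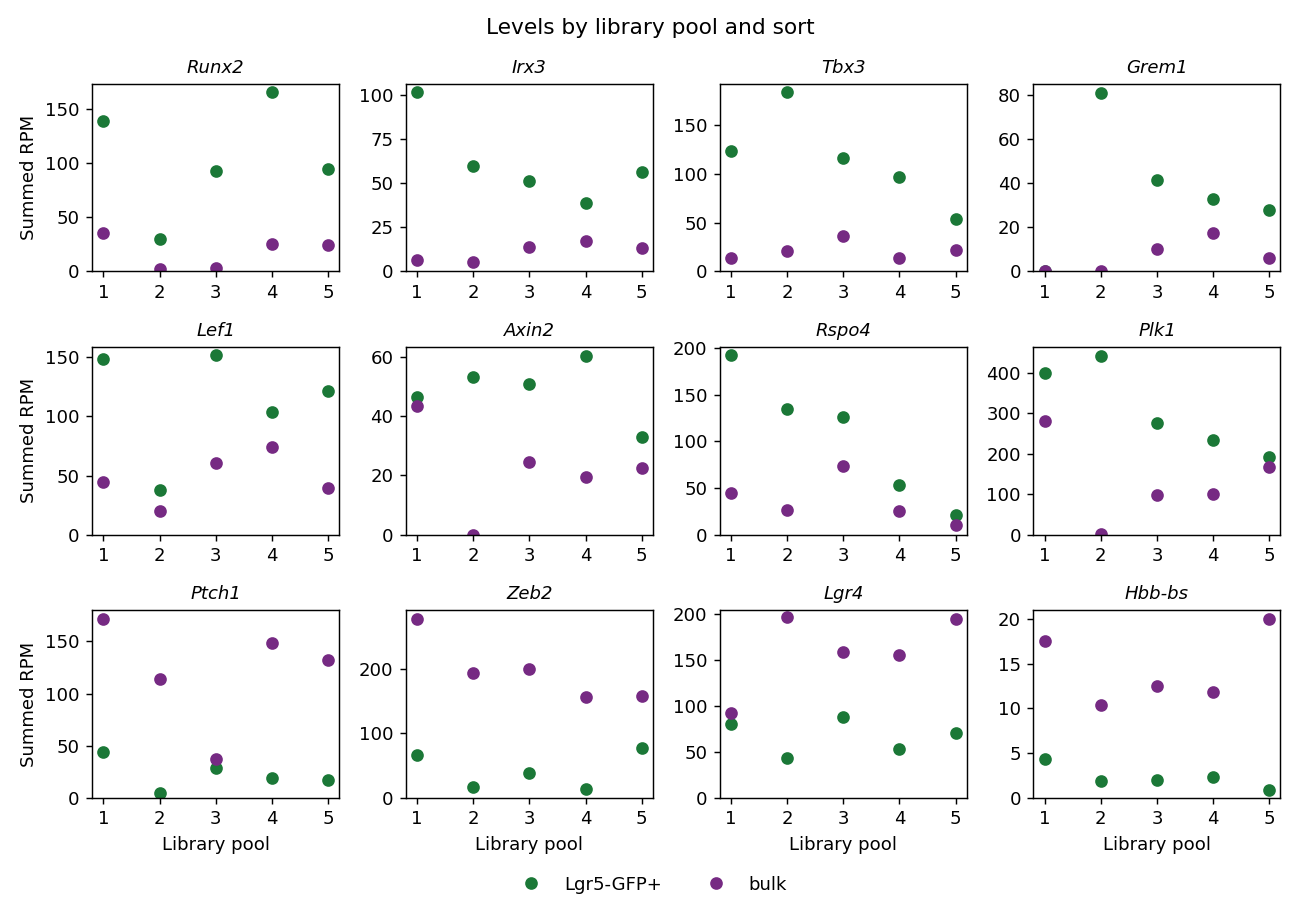
Summed RPM (vertical axes, linear from 0) of 12 genes by library pool (horizontal axes), with 1 point per sort and pool and no error bar, since each point is 1 sum. Runx2, Irx3 and Tbx3 were higher and Ptch1, Zeb2 and Hbb-bs lower in the Lgr5-GFP+ members of each pool; the sorts lay close together in pool 1 for Grem1 and Axin2 and in pool 3 for Ptch1.

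Position genes of other regions differed less evenly. In the head and branchial arch list 11 of 22 genes passed. Twist1 and Alx1, factors of cranial and limb mesenchyme, were higher in 4 of 5 pools and so not called, at 82.1 against 32.9 RPM and 131.5 against 63.5 RPM. Meox1, a somite factor, was called higher at 57.6 against 23.6 RPM with 16 Lgr5-GFP+ and 6 bulk cells over 10 reads, and under 2-fold in 3 of 20 alternative settings. None of the 13 Hox genes that passed was called in either direction. Among them Hoxc5 was at 109.7 against 68.2 RPM and Hoxc4 at 52.9 against 65.3 RPM, whereas Hoxd9 was at 2.71 against 16.2 RPM and was listed at 0 in the Lgr5-GFP+ members of pools 1, 2 and 3. The Hox A cluster, with 5 of 11 genes measured, summed to 98.1 against 136.1 RPM and the Hox B cluster, with 5 of 10, to 80.3 against 75.9 RPM. The Hox C cluster, with 2 of 9, summed to 164.3 against 134.3 RPM and the Hox D cluster, with 1 of 9, to 5.37 against 29.4 RPM. Pool ranges of these sums overlapped between sorts, but within pools the Hox D sum was lower in Lgr5-GFP+ in each. In pool 2 the Hox D sum was near 0 in both sorts (0 and 0.076 RPM). Of the 39 genes of the 4 clusters 16 were listed at 0 in every cell of the series, Hoxa5 and Hoxc8 among them, and nothing is drawn from those. The neural tissue list, with 4 of 12 genes measured, the heart muscle list, with 5 of 8, and the neural crest and glia list, with 6 of 14, held no call, at sums of 113.5, 310.3 and 1061 RPM in Lgr5-GFP+ and 162.2, 229 and 1112 RPM in bulk members.

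The Wnt target list had the highest median log2 ratio of the lists with 5 or more measured genes, 1.10 over 8 genes of 15. Over all genes the median was -0.002151. In the list 3 genes were called higher and none lower, beside 1.65% higher and 1.84% lower over all genes. Lgr5, 1 of the 3, was fixed by the sort. It is counted in the median of the list and, at 30.8 against 2.97 RPM, in the sums that follow. The list's summed level was 524, 495, 999.5, 905 and 691 RPM in the Lgr5-GFP+ members of pools 1 to 5 and 324, 177.9, 435, 710.995 and 523 RPM in bulk, higher in each pool. Lef1 (ENSMUSG00000027985, chr3:131110471-131224356), a nuclear partner of beta-catenin, was at 148.6, 38.2, 152.3, 103.9 and 121.999 RPM against 44.9, 19.9, 60.8, 74.2 and 39.6 RPM. Its log2 ratio was 1.35 (0.49 to 1.73 by pool), and it had more than 10 reads in 56.2% (45.7 to 66.4) of Lgr5-GFP+ and 25% (17.4 to 33.9) of bulk members. Axin2 (ENSMUSG00000000142, chr11:108920349-108950783), a scaffold of the beta-catenin destruction complex, was at 46.5, 53.2, 50.8, 60.3 and 32.7 RPM against 43.4, 0.0380, 24.5, 19.5 and 22.6 RPM. In pool 1 the Axin2 levels were close, and in pool 2 bulk members held 1 read, and its log2 ratio of 1.14 was under 2-fold in 9 of 20 alternative settings. Both Lef1 and Axin2 were over 10 reads in 30 Lgr5-GFP+ members, 31.2% (22.2 to 41.5), and in 7 bulk members, 6.03% (2.46 to 12). The 2 genes were called higher in these same cells, so this share too describes the same difference and adds no support. Nkd1, an intracellular Wnt inhibitor that is itself a target, was at 183.9 against 87.9 RPM but higher in 3 of 5 pools only, and Ccnd1 and Myc, which answer to many pathways, had log2 ratios of -0.36 and -0.33.

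The sequences just upstream of Lef1 and Axin2 are shown because these Wnt target genes were higher together and the core bound by TCF/LEF factors is a plain letter match. They are the 250 bases before an annotated start in RefSeq, build GRCm38.p6, 5′ to 3′ on the plus strand, with each CTTTGA or its reverse complement TCAAAG in capitals. The Lef1 sequence belongs to the fourth of its 4 starts, at chr3:131156044-131156293, plus strand, which lies in an intron of the longer Lef1 transcripts. The Axin2 sequence is at chr11:108920099-108920348, plus strand, directly upstream of the gene.
Lef1: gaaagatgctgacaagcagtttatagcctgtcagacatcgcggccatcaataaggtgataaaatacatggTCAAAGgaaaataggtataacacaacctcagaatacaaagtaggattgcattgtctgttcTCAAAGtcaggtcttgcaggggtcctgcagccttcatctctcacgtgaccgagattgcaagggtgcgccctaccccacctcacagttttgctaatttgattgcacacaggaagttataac
Axin2: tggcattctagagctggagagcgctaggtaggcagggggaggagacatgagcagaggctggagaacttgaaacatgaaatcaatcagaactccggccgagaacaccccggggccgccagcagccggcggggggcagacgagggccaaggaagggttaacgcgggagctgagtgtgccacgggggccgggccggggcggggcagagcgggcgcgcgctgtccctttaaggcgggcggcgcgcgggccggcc
The core occurred 2 times before that Lef1 start, 180 and 120 bases from it, and 1 time in the window of Runx2. It was not in the window of Axin2, nor in those of the other 3 Lef1 starts, Irx3, Grem1, Wnt2b, Rspo4 or Plk1. Among genes called higher that have such a sequence 14 held the core in it, 10.2%, and among those called lower 19 did, 12.3%. Over all 27025 genes with a sequence the share was 15.8%, above both. Tbx3, Lgr5 and Vcam1 had no entry.

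Among receptors, R-spondins and E3 ligases 18 of 24 genes passed, with Lgr5 and Rspo4 called higher and Lgr4 lower, and a median log2 ratio of 0.32. Rspo4, a ligand of the Lgr receptors, was at 192.5, 134.8, 126.3, 53 and 20.5 RPM against 45.1, 26.8, 74, 25.1 and 10.1 RPM, higher in each pool, with 28 Lgr5-GFP+ and 12 bulk cells over 10 reads. Its log2 ratio was 0.94 in pools 3 to 5 taken alone and 0.93 without members over 10 Hbb-bs reads, both under 2-fold. Lgr4 (ENSMUSG00000050199, chr2:109917647-110014257), the more widely expressed R-spondin receptor, was at 80.7, 42.8, 88.4, 53.4 and 70.9 RPM against 91.8, 196.4, 158.4, 155.3 and 194.9 RPM, a log2 ratio of -1.17. It was over 10 reads in 43.8% (33.6 to 54.3) and 48.3% (38.9 to 57.7) of the cells, so the level differed while the intervals of the shares overlapped. The difference was under 2-fold in 5 of 20 alternative settings, with a log2 ratio of -0.89 without cells over 10 Lgr5 reads. Rspo3, at 11.3 against 29.7 RPM, and Rspo1, at 69.6 against 42.1 RPM, were not called. Znrf3, which removes Wnt receptors and is itself a Wnt target, was higher in each pool at 198.9 against 109.6 RPM but under 2-fold. Of the Wnt ligands 6 of 18 passed: Wnt2b was called higher at 11.2 against 2.53 RPM with 10 Lgr5-GFP+ and 4 bulk cells over 10 reads, and Wnt2, a ligand of liver and lung mesenchyme, was at 150.3 against 61.2 RPM and higher in 4 of 5 pools. Of the secreted inhibitors 10 of 13 passed and none was called, with Dkk2 at 234 against 92.8 RPM, Sfrp2 at 85 against 44.1 RPM and Sfrp1 at 446 against 438 RPM.

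In the Hedgehog list 9 of 15 genes passed and Ptch1 was called lower, with a median log2 ratio of 0.06. Ptch1 (ENSMUSG00000021466, chr13:63508328-63573598), the Hedgehog receptor and a direct target of the pathway, was at 44.2, 4.42, 28.5, 19.4 and 17.1 RPM in the Lgr5-GFP+ members and at 171.6, 113.8, 36.8, 148.2 and 132.3 RPM in bulk. It was lower in each pool, narrowly in pool 3, with a log2 ratio of -2.23 (-4.69 to -0.37 by pool) and 21 Lgr5-GFP+ and 41 bulk cells over 10 reads. Gli1, another direct target, was at 2.62 against 27 RPM in 2 and 10 cells and was lower in 3 of 5 pools, so it was not called. Gli2, an effector of the pathway, pointed the other way at 174.9 against 108.03 RPM, higher in each pool but under 2-fold, and Gli3 had a log2 ratio of 0.06. Reads of Ptch1 or Gli1 over 10 were found in 21 Lgr5-GFP+ members, 21.9% (14.1 to 31.5), and in 43 bulk members, 37.1% (28.3 to 46.5). By pool these were 2 of 24, 1 of 9, 8 of 21, 4 of 27 and 6 of 15 Lgr5-GFP+ and 9 of 25, 2 of 21, 7 of 22, 13 of 23 and 12 of 25 bulk members, so in pools 2 and 3 the share was not lower in Lgr5-GFP+.

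Some single genes of mesoderm and muscle were also among the lower calls, although most measured smooth muscle genes pointed the other way. Zeb2 (ENSMUSG00000026872, chr2:44983632-45117395), a repressor that acts in mesenchymal transition, was at 66.6, 17.6, 38.2, 13.6 and 76.8 RPM against 278, 193.6, 199.7, 155.7 and 157.5 RPM. The highest Lgr5-GFP+ pool lay below the lowest bulk pool, with a log2 ratio of -2.17, and 27 Lgr5-GFP+ and 37 bulk cells had more than 10 reads, shares of 28.1% (19.4 to 38.2) and 31.9% (23.6 to 41.2). Zeb2 was the 1 call among 17 measured mesenchyme markers. In the mesothelium and septum transversum list 14 of 20 genes passed and 2 were called lower. These were Des, the muscle filament that also marks hepatic stellate cells, at 14.8 against 62.4 RPM, and Lhx2, a stellate cell regulator, at 4.94 against 20.4 RPM. Lhx2 was listed at 0 in the Lgr5-GFP+ members of pools 1, 2 and 5. The list's median log2 ratio was -0.29, and its most abundant uncalled genes were Alcam at 545 against 310.4 RPM, Bmp4 at 439.9 against 227 RPM and Gata6 at 138.6 against 148.8 RPM. Myocd, the coactivator of the smooth muscle program, was called lower at 2.12 against 22.6 RPM with 2 Lgr5-GFP+ and 9 bulk cells over 10 reads. It was the 1 call in the smooth muscle and pericyte list, where 6 of 10 genes passed. Of these 5 had a ratio above 1, with a median log2 ratio of 0.29. The list summed to 775.5 against 564.2 RPM and was higher in Lgr5-GFP+ in 4 of 5 pools. Acta2, a gene of that program, was at 627 against 413 RPM, under 2-fold, and higher in 4 of 5 pools.

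Signalling lists outside Wnt and Hedgehog held few calls. In the BMP and TGF-beta list 22 of 27 genes passed, and Grem1 and Gdf10 were called higher (63.4 against 22.2 RPM for Gdf10, under 2-fold or turned in 3 of 20 alternative settings), with a median log2 ratio of 0.01. Id3, Id2 and Bambi, which answer to BMP, had log2 ratios of -0.15, 0.04 and 0.34. In the FGF list 12 of 16 passed with a median of -0.23, and Spry1, a feedback inhibitor, was called lower at 17.6 against 41.5 RPM, although under 2-fold in 6 of 20 alternative settings (a log2 ratio of -0.69 in pools 3 to 5). Fgfr2 was lower in each pool at 88.9 against 170.2 RPM, under 2-fold. In the retinoid list 13 of 18 passed and Stra6, the retinol uptake receptor, was called lower at 38.4 against 82.4 RPM, although under 2-fold in 5 of 20 (a log2 ratio of -0.22 in pools 1 and 2). None of the 34 measured extracellular matrix genes, 26 guidance and adhesion genes, 18 IGF and growth factor genes, 13 stress genes or 7 Notch genes was called, with list medians between -0.15 and 0.19. Igf2 and Foxf1 were listed at 0 in every cell of the series and are not judged.

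**Figure D3:**
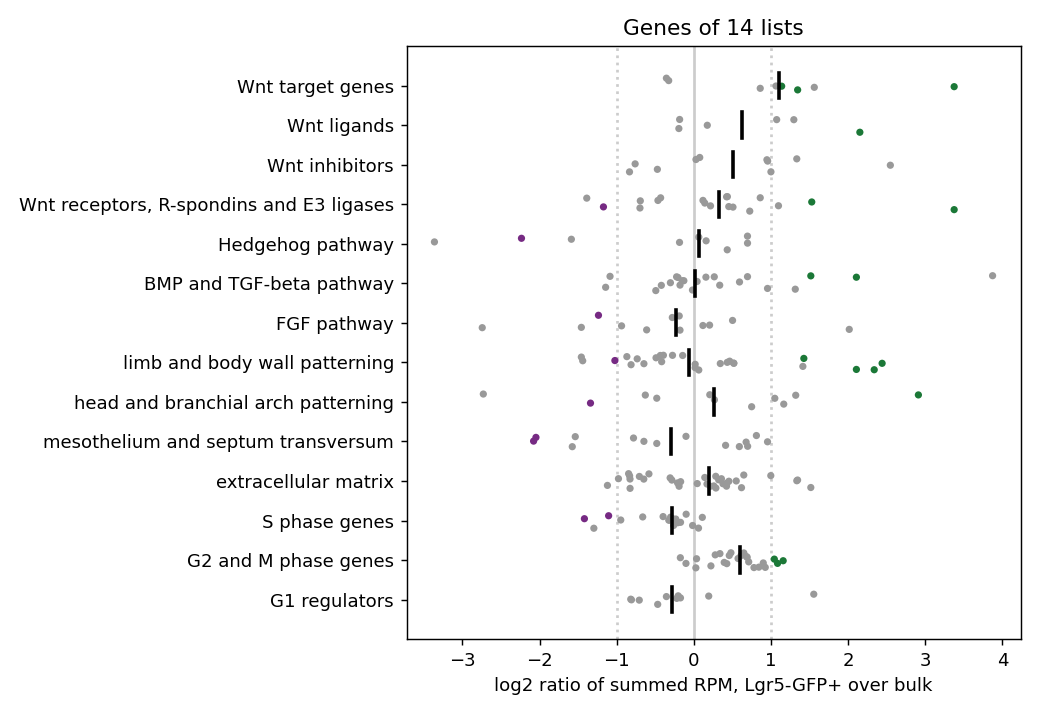
The log2 ratio of summed RPM, Lgr5-GFP+ over bulk (horizontal axis), of each measured gene in 14 lists (vertical axis; vertical scatter within a row has no meaning). Green points were called higher, purple points lower and grey points neither, the black bar is the list median and dotted lines mark 2-fold. The medians of Wnt targets (1.10), Wnt ligands (0.62) and G2 and M genes (0.59) lay farthest to the right. The Wnt targets include Lgr5, which was fixed by the sort.

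The sorts also differed in the cell cycle. Phases were called per cell with cyclone, which compares pairs of genes within a cell. G2/M was called in 53 Lgr5-GFP+ members, 55.2% (44.7 to 65.4), and in 31 bulk members, 26.7% (18.9 to 35.7). In pools 1 to 5 the G2/M cells numbered 14 of 24, 2 of 9, 12 of 21, 18 of 27 and 7 of 15 in Lgr5-GFP+, and 10 of 25, 2 of 21, 5 of 22, 6 of 23 and 8 of 25 in bulk. The share was higher in Lgr5-GFP+ members of each pool, although the intervals within each pool overlapped. G1 was called in 35.4% (25.9 to 45.8) against 62.1% (52.6 to 70.9), and S in 9.38% (4.38 to 17.1) against 11.2% (6.10 to 18.4). With cells thinned to 100000 reads the G2/M shares were 56.2% and 25.9%. Mki67, a marker of cycling cells, was over 10 reads in 72 Lgr5-GFP+ members, 75% (65.1 to 83.3), and in 48 bulk members, 41.4% (32.3 to 50.9).

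**Figure D4:**
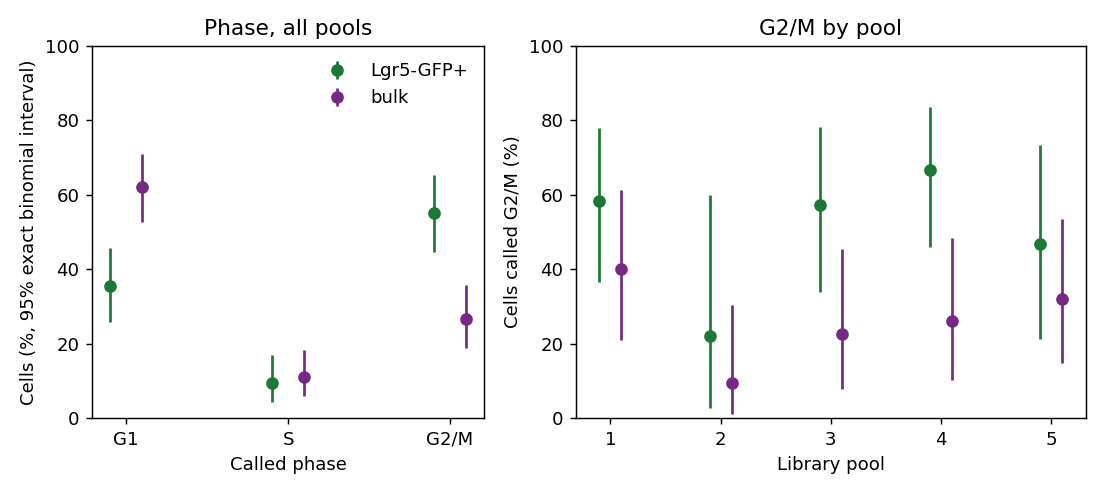
Left, share of cells (vertical axis, percent) called in G1, S and G2/M in each sort; right, share called G2/M by library pool. Points are shares and bars exact 95% binomial intervals; G2/M was at 55.2% in Lgr5-GFP+ and 26.7% in bulk members and was higher in Lgr5-GFP+ in each pool.

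The read levels of phase genes, which the phase calls also use, differed too. All 24 genes of the G2 and M list passed, with a median log2 ratio of 0.59 beside -0.002151 over all genes. Of the 24 genes 22 had a ratio above 1 (49.9% of all genes) and 3 were called higher (1.65% of all genes). Their summed level in pools 1 to 5 was 9108, 7629.9, 6985, 7333 and 6900.2 RPM in Lgr5-GFP+ and 6314, 6042, 3415, 3936 and 5053 RPM in bulk members, so every Lgr5-GFP+ pool lay above every bulk pool. Plk1, a mitotic kinase, was at 293 against 131.4 RPM with 66 Lgr5-GFP+ and 31 bulk cells over 10 reads, and in pool 2 its bulk level was 1.79 RPM. Its log2 ratio was under 2-fold in 4 of 20 alternative settings, and 0.80 without pool 2. Cdca8, of the chromosomal passenger complex, was at 424 against 199.8 RPM, Hmmr, a spindle protein, at 193.05 against 93.7 RPM, and Top2a, which was higher in each pool but under 2-fold, at 808 against 425 RPM. Cdca8 was under 2-fold in 4 of 20 alternative settings and Hmmr in 5. The S phase genes pointed the other way: 18 of 20 passed, 2 had a ratio above 1, and Mcm4 of the replicative helicase (129.8 against 279 RPM) and Ccne2 of the G1 to S step (18.3 against 48.9 RPM) were called lower. Mcm4 was under 2-fold in 5 of 20 alternative settings, with a log2 ratio of -0.73 in pools 3 to 5, and Ccne2 in none. Their summed level was lower in each pool, 3302 against 4045 RPM over all. The G1 regulators, with 10 of 11 measured, were lower in each pool as a sum, 3482 against 4272 RPM, with Ccnd2 at 378 against 662 RPM and none called.

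Since the phases differed, the leading genes were also compared among cells called in G1, 34 Lgr5-GFP+ and 72 bulk. There Runx2 had a log2 ratio of 1.92, Irx3 of 1.70 and Tbx3 of 2.77. Lef1 and Axin2 were at 0.81 and 0.87, under 2-fold. Ptch1 was at -4.23 and Zeb2 at -2.35, both larger than over all members. Among cells called in G2/M Zeb2 was at 43.3 against 46.1 RPM, so its difference was not seen there, and Ptch1 at 37.1 against 150.8 RPM. In the cells called in G1 the median of the Wnt target list was 0.74 and that of the G2 and M list 0.42, beside -0.07 over all genes.

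The 15 protein-coding genes with the largest ratios in each direction were mostly genes of few cells. Higher were Vgll3, Cib2, Lurap1l, Dclk2, E130114P18Rik, Adam11, Dcaf12l1, Med12l, Lgr5, Neb, Gch1, Exoc8, Hist4h4, Agbl3 and Slc10a1. Beside Lgr5, these had more than 10 reads in 9 to 21 Lgr5-GFP+ and 1 to 5 bulk cells. Vgll3, a cofactor of TEAD factors, was at 16.7 against 0.276 RPM with 10 Lgr5-GFP+ and 1 bulk cells over 10 reads, and Cib2, a calcium-binding protein, at 32 against 1.01 RPM with 19 Lgr5-GFP+ and 3 bulk cells. In Adam11 1 cell held 70.6% of the Lgr5-GFP+ reads. Lower were 5430403G16Rik, Fam19a2, Hdac11, Garnl3, Prkcz, Rtkn, Rtl4, Myocd, Egfr, Rasgrp3, Trim39, Cobl, Zbtb5, Znfx1 and Lor. Fam19a2 was at 2.15 against 36.9 RPM with 3 Lgr5-GFP+ and 14 bulk cells over 10 reads, and Egfr, the EGF receptor, at 3.93 against 35.1 RPM with 6 Lgr5-GFP+ and 9 bulk cells. For Prkcz, an atypical protein kinase C, 1 bulk cell held 89.8% of the reads, and without the top cell of each sort its log2 ratio of -3.65 became -0.51. The other 14 of these lower genes stayed at 2-fold or more in that comparison, with Hdac11, a histone deacetylase, at -4.36.

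Some broad differences lay in genes of no list, picked after their values were seen. Vcam1, an adhesion receptor of stromal cells, was at 83.8 against 21.2 RPM with 28 Lgr5-GFP+ and 10 bulk cells over 10 reads. Tmem132c, a membrane protein, was at 289, 499, 164.6, 273 and 73 RPM against 45.2, 114.9, 32.9, 83.1 and 63 RPM with 59 Lgr5-GFP+ and 30 bulk cells. Ctnna2, an alpha-catenin of cell junctions, was at 184.3 against 77.6 RPM with 62 Lgr5-GFP+ and 29 bulk cells, and under 2-fold without pool 1, without pool 4 and without members over 10 Hbb-bs reads (log2 ratios of 0.896, 0.886 and 0.88).

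**Figure D5:**
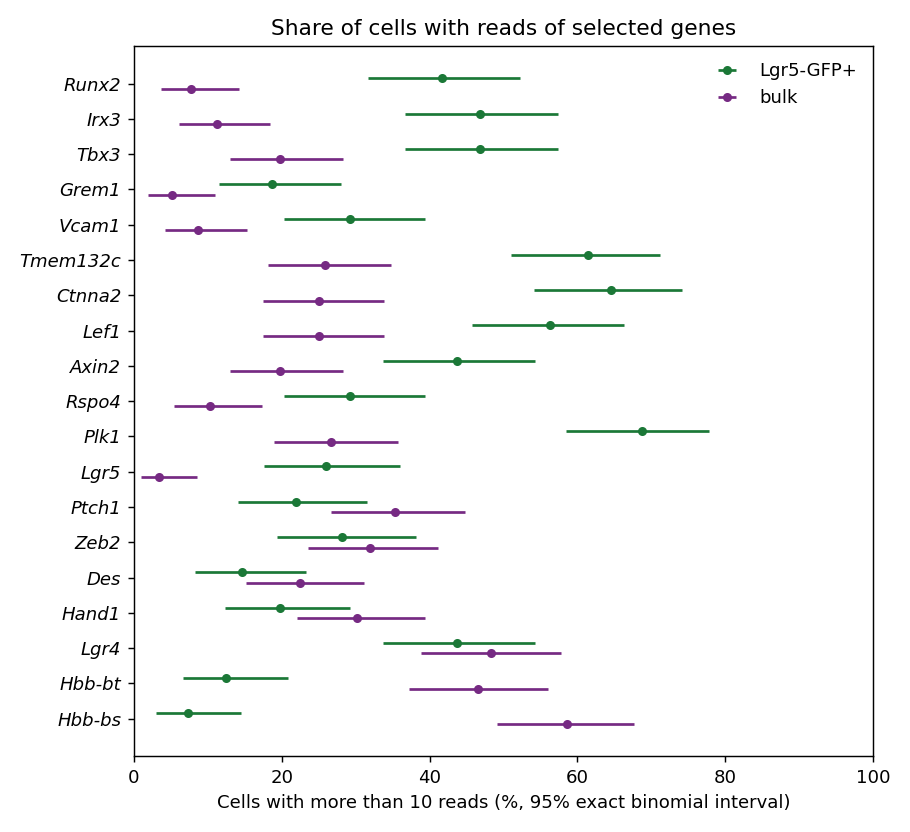
Share of cells with more than 10 reads (horizontal axis, percent) of 19 genes in each sort; points are shares and bars exact 95% binomial intervals. The 19 genes were picked for display, and Lgr5 was fixed by the sort. The intervals of the first 12 genes did not meet, with Runx2 at 41.7% against 7.76%. Those of Ptch1, Zeb2, Des, Hand1 and Lgr4 overlapped, and the adult beta globins Hbb-bt and Hbb-bs were seen in more bulk members. Over all genes compared the intervals were apart and higher in Lgr5-GFP+ for 9.68% and lower for 0.114%.

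Globin reads separated the sorts in the other direction. Hbb-bs (ENSMUSG00000052305, chr7:103826534-103828096), an adult beta globin, was at 4.34, 1.86, 1.98, 2.34 and 0.836 RPM in Lgr5-GFP+ and 17.5, 10.4, 12.5, 11.9 and 20.05 RPM in bulk members, with 7 Lgr5-GFP+ and 68 bulk cells over 10 reads. These are low levels, spread over many cells: the top bulk cell held 4.55% of the reads. Hbb-bt was at 2.42 against 10.6 RPM, whereas the embryonic globins Hba-x and Hbb-y were at 55.6 against 27 RPM and 35.8 against 22.2 RPM and on different sides in different pools. Over the erythroid and leukocyte list the summed level ran from 1.28 to 394 RPM over the Lgr5-GFP+ pools and from 18.96 to 248 RPM over the bulk pools, with the defining erythroid genes Klf1 (capped by the rule) and Gata1 at 0.0996 and 0.158 RPM in Lgr5-GFP+ and at 1.501 and 0.666 RPM in bulk members. The part of these reads in the other differences was examined by leaving out members with more than 10 Hbb-bs reads, which kept 89 Lgr5-GFP+ and 48 bulk cells and called 3.55% of genes higher and 1.03% lower. Of the genes called over all members 56.3% of the higher and 20.6% of the lower were called again there. The log2 ratios were then 3.56 for Runx2, 2.69 for Irx3, 1.84 for Tbx3, -2.24 for Ptch1 and -1.29 for Zeb2, and those of Lef1 (0.86), Axin2 (0.83) and Lgr4 (-0.83) were under 2-fold.

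Within the Lgr5-GFP+ members the leading genes were compared between cells with more than 10 Lgr5 reads and the others, some of which had fewer reads of it. The cells over 10 reads lay mostly in pools 3, 4 and 5, with 11, 8 and 4 of the 25. Runx2 was at 138.1 RPM in the 25 cells with more than 10 Lgr5 reads, at 110.5 RPM in the other 71 and at 16.3 RPM in the bulk cells with 10 or fewer. Irx3 was at 62.6, 61.4 and 10.9 RPM in the same order, and Tbx3 at 119.4, 102.7 and 19.5 RPM. Lef1 was at 158.9, 110.2 and 43.5 RPM, and Axin2 at 75.5, 39.4 and 22 RPM, so that Axin2 in Lgr5-GFP+ cells with 10 or fewer Lgr5 reads lay under 2-fold above bulk. Ptch1 was low in both Lgr5-GFP+ groups, at 17.7 and 28.9 RPM, against 122.2 RPM in bulk, and Zeb2 was at 26.2, 50.2 and 202.1 RPM. These levels differ between cell groups of unequal size within 1 sample per sort and were not tested.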

How the data were processed

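Single cells were sequenced with an adapted Smart-seq2 protocol without molecular identifiers (single-end reads of 50 bases). Per the methods and the submitters' processing notes, the authors aligned reads to GRCm38 with spike-in sequences by STAR 2.6.0c and counted unique reads per Ensembl gene with Subread 1.6.2; the deposited values used here are raw counts, 54195 genes by 653 cells. The authors kept cells by limits on mitochondrial, spike-in and total reads and on genes detected, the last differing between sorting experiments, which the labels do not tie to cells; normalized values were not used. Names and coordinates came from GENCODE M21 (54042 IDs matched). No test was run because each sort is 1 sample, and no doublet caller was run. Members' counts were summed per sort and divided by the summed reads (RPM, not corrected for gene length, so levels are not compared between genes). A sum below 3 reads was set to 3 reads in a ratio. Intervals were exact (95%). Named genes were the 4 genes of the rule with Afp, Klf1 and Lgr5, the 15 largest protein-coding calls in each direction, up to 4 calls in each direction and the 3 most abundant uncalled genes of each list, and each measured Hox gene; others are said to be picked later, and some genes that the rule names are not reported here. The members and lists were chosen with earlier results of these data known. Phases were called with cyclone in scran 1.30.0, and edgeR 4.0.16 gave TMM factors only. The call rule was tested on simulated data. The simulation held no pool effects and no difference in genes detected between the sorts. It therefore cannot tell how the rule behaves on these data.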

Additional observations from a re-analysis of the deposited data

How the results depend on the processing

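The shares of genes called (1.65% higher, 1.84% lower) moved with which pools had to share a direction, since fewer pools make a looser condition: leaving out 1 pool gave 2.598% to 3.12% higher and 2.85% to 3.53% lower, pools 1 and 2 alone 12.7% and 14.9%, and pools 3, 4 and 5 alone 5.65% and 4.86%. Members with no read of Afp or Klf1 gave 9.06% and 4.59%, cells in G1 1.06% and 3.01%, members with at most 10 Hbb-bs reads 3.55% and 1.03%, and a 3-fold limit 0.722% and 0.808%. Thinned cells gave 1.17% higher and no filter on low genes 1.32%. The cause of the shift without Afp, Klf1 or Hbb-bs reads and in G1 was not tested. The other alternatives kept both counts within 1.5 times. The calls were not the same genes throughout: 36 of the higher and 75 of the lower calls were also called in G1, and 65 and 94 in thinned cells. Of 62 named genes with a call 60 kept their sign in 20 alternatives and 38 stayed at 2-fold or more in each. With no read of Afp or Klf1, Lor turned to a log2 ratio of 0.73 and Gdf10 to -0.73.

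The share of cells that were members (45.5% of Lgr5-GFP+ and 57.1% of bulk cells) was 31.8% and 36.5% with 3 of the 4 genes required and 22.3% and 13.3% with no read of Afp or Klf1, and ran from 40.6% to 53% and from 54.8% to 58.6% with 1 pool left out. G2/M shares ran from 50.7% to 58.6% and from 23.1% to 30.5% without 1 pool, and the share with Mki67 reads was 75% and 41.4%. Lgr5 was found in 46.9% and 17.2% of members at any read, in 6.06% and 0% of members of pools 1 and 2, and in 36.5% of Lgr5-GFP+ members of pools 3 to 5, with 18.7% to 33.3% and 2.13% to 4.40% without 1 pool. The splits by pools, Hbb-bs reads and top cells were chosen after seeing the data. No paired analysis was possible because each sort is 1 sample and the replicate numbers only name cells.

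Without embryos or litters as replicates no spread between animals was available. Many called genes were seen in few cells, and the number of genes detected differed between the sorts with cells thinned to the same depth.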

Other observations

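Muscle progenitor genes were uneven between the sorts. Pax3 or Lbx1, which mark migrating muscle progenitors, had more than 10 reads in 9 Lgr5-GFP+ members, 9.38% (4.38 to 17.1), and in 3 bulk members, 2.59% (0.537 to 7.37). Both genes were over 10 reads in 6 Lgr5-GFP+ and 0 bulk members. All 9 Lgr5-GFP+ cells lay in pools 3, 4 and 5. Pax3 was at 69.3 against 13.1 RPM, with 73.5% of the bulk reads in 1 cell, and was not called.

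Genes of the Y chromosome, read as a rough check of the embryos' sex, had more than 10 reads of at least 1 gene in 42 Lgr5-GFP+ members, 43.8% (33.6 to 54.3), and in 47 bulk members, 40.5% (31.5 to 50.03). Uty was called higher at 32.3 against 13.3 RPM, under 2-fold in 2 of 20 alternative settings, while Ddx3y was at 26.3 against 61.2 RPM and Eif2s3y at 30.8 against 51.5 RPM.

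At E13.5 the same rule took 23 of 80 Lgr5-GFP+ cells, 28.8% (exact 95% binomial interval 19.2 to 39.95), and 1 bulk cell, 0.629% (0.0159 to 3.45), so the sorts could not be compared there. In the 23 cells Runx2 was at 2.72 RPM, Irx3 at 0.0378 RPM and Lef1 at 10.1 RPM, and Zeb2 at 668 RPM with 15 of 23 cells over 10 reads. Among E10.5 Lgr5-GFP+ cells with more than 10 Afp reads, which are not members, Tbx3 was over 10 reads in 26 of 55 cells, 47.3% (33.7 to 61.2), and Runx2 in 1 of 55, 1.82% (0.0460 to 9.72).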
